A study of Mus musculus with 6 samples.

Results

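A set of 10 genes of the heat shock response and of the HSP90 chaperone machinery were followed by symbol in mouse 2-cell embryos: the heat shock factors Hsf1 and Hsf2, their regulator Hsbp1, the cytosolic HSP90 genes Hsp90aa1 and Hsp90ab1, the HSP90 partners Stip1, Ahsa1 and Stub1, the small heat shock protein gene Hspb1, and Bag3. All 10 were among the 18649 named rows of the count table, and all 10 passed the filter on low counts. Poly(A) RNA was sequenced from embryos kept in culture without arsenite (0 µM, 3 libraries) and from embryos whose G1-PLUS culture medium held sodium arsenite, a trivalent arsenic salt, at 5 µM (3 libraries). The strain, the age of the females, the length of the exposure and the number of embryos in a library are not stated in the labels, nor do they call the replicates separate cultures, so p-values reflect the spread among these libraries, which can be technical.

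HSF1 and HSF2 are transcription factors that bind heat shock elements, repeats of GAA and its complement TTC, in front of chaperone genes. In unstressed cells HSP90 and HSP70 hold HSF1 inactive, and misfolded protein, heat or arsenite draws these chaperones away and frees it, while HSBP1 binds the trimerisation region of HSF1. HSP90 then folds its clients in a cycle set by co-chaperones: STIP1 links it to HSP70, AHSA1 speeds up its ATPase, and STUB1 is a ubiquitin ligase that sends clients to degradation. In mouse oocytes HSF1 is known as a maternal factor that drives Hsp90aa1.

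The stretches in front of Hspb1, Hsbp1 and Bag3 are shown because Hspb1 and Hsbp1 had the largest rises of the 10 and Bag3 is a classic stress gene that did not pass the test. Each is 200 bases, from 250 to 51 bases before the RefSeq transcription start (GRCm38.p6, the assembly behind mm10), on the plus strand, with any GAANNTTC or TTCNNGAA in capitals. Hspb1 lies at chr5:135887669-135887868, Hsbp1 at chr8:119344288-119344487 and Bag3 at chr7:128523333-128523532.
Hspb1: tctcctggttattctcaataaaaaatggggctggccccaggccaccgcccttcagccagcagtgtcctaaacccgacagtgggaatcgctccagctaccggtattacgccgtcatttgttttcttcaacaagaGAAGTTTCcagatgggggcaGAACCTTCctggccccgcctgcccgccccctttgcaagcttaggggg
Hsbp1: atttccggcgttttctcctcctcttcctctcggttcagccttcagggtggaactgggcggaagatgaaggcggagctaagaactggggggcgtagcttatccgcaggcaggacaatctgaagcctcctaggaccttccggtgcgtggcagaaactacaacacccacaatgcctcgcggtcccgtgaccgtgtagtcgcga
Bag3: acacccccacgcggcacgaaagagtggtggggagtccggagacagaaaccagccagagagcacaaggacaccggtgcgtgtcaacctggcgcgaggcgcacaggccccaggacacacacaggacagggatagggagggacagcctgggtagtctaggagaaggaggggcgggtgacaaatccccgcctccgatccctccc

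RefSeq windows of 300 bases, from 250 before to 50 after the start, were matched for 7 of the 10 genes: Hspb1, Bag3, Hsbp1, Hsf2, Ahsa1, Stub1 and Stip1. GAANNTTC and TTCNNGAA each read the same on both strands and can overlap each other. At least 1 of them was in 3 of the 7 windows and in 15.1% of all 32851 windows. The Hspb1 window held a pair, GAAGTTTC at −117 to −110 and GAACCTTC at −97 to −90, and 1.96% of all windows held 2 or more. Bag3 had GAAGTTTC at 43 to 50 after the start, outside the stretch printed above, and Stub1 had GAAGCTTC at −123 to −116. No window of the 7 held the longer GAANNTTCNNGAA or TTCNNGAANNTTC, which 0.603% of all windows held. A match is only letters, not a measured binding site.

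Totals of counts used ran from 7754037 to 8515078 a library. A count of 3 was worth 0.352 to 0.387 CPM (counts scaled to library size). Such limits cover counting error only, since the counts are of reads, and PCR copies among reads are not independent molecules. The labels describe different library kits and do not say which was used. Levels below are CPM scaled by TMM factors, and fold changes are log2 values, arsenite against control, with positive values for higher levels in arsenite. Of 8 tested genes that mark the 2-cell stage 5 rose with arsenite. Over all tested genes 9.43% were called higher (edgeR adjusted p under 0.05). The summed level of the 8 genes was 908 to 993 CPM in controls and 1534 to 3566 CPM with arsenite. Of 8 tested oocyte genes 4 rose. The 9 oocyte genes in the table summed to 500.3 to 1215 CPM in controls and 2277 to 2981 CPM with arsenite. Bmp15 was the largest part of this sum, with means of 332 CPM in controls and 1528 CPM with arsenite. Oosp1, which was not called, went from 252 to 598 CPM. The means of Zp3 (86.5 and 53.1 CPM) and Figla were lower with arsenite, and those of the other oocyte genes higher. Of 4 tested cumulus and granulosa cell genes 1 rose, and the 9 in the table summed to 2.77 to 6.83 CPM and 11.6 to 17.2 CPM, with Cyp11a1 and Hsd3b1 at 0 counts in every control and Inhba, Has2 and Areg at 0 in every arsenite library. The 5 sperm genes summed to 0 to 0.732 CPM and 0.342 to 4.09 CPM. The 6 genes of later embryos summed to 7.83 to 17.6 CPM and 29.1 to 75.1 CPM, and 1 of 5 tested rose, Gata3. The sperm sums of the groups overlapped, and no sperm gene was tested. Among the later embryo genes Krt18 had 376 counts in arsenite replicate 2, against 3 and 9 in arsenite replicates 1 and 3. It had 1, 82 and 12 counts in control replicates 1, 2 and 3. Sums of the other lists were higher in every arsenite library than in any control, so they moved with the group, as the results below do. The part of these sums in the results below was not tested. In bulk libraries fewer cells of a type and less RNA per cell cannot be told apart.

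With arsenite Hspb1, Hsbp1 and Ahsa1 rose, and the HSP90 genes themselves, both heat shock factors, Stip1, Stub1 and Bag3 did not pass the test. Of the 10 genes 3 were higher and 0 lower by the quasi-likelihood test of edgeR at a Benjamini-Hochberg adjusted p under 0.05. At an unadjusted p under 0.05 there were 3 higher and 0 lower genes, where 33.9% of all tested genes passed in either direction, and the counts were also 3 and 0 with DESeq2 and with limma-voom. Over all 12582 tested genes 16.7% were called, 9.43% as higher and 7.26% as lower. The 10 genes had a median log2 fold change of 0.43, against 0.07 for all tested genes. Arsenite libraries lay wholly above controls for 5 of the 10, where 21.9% of all tested genes did so, and wholly below them for 0, against 19.7% (41.6% either way). All 3 same-numbered pairs moved the same way for 7 of the 10 genes, against 61.8% of all tested genes.

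**Figure D1:**
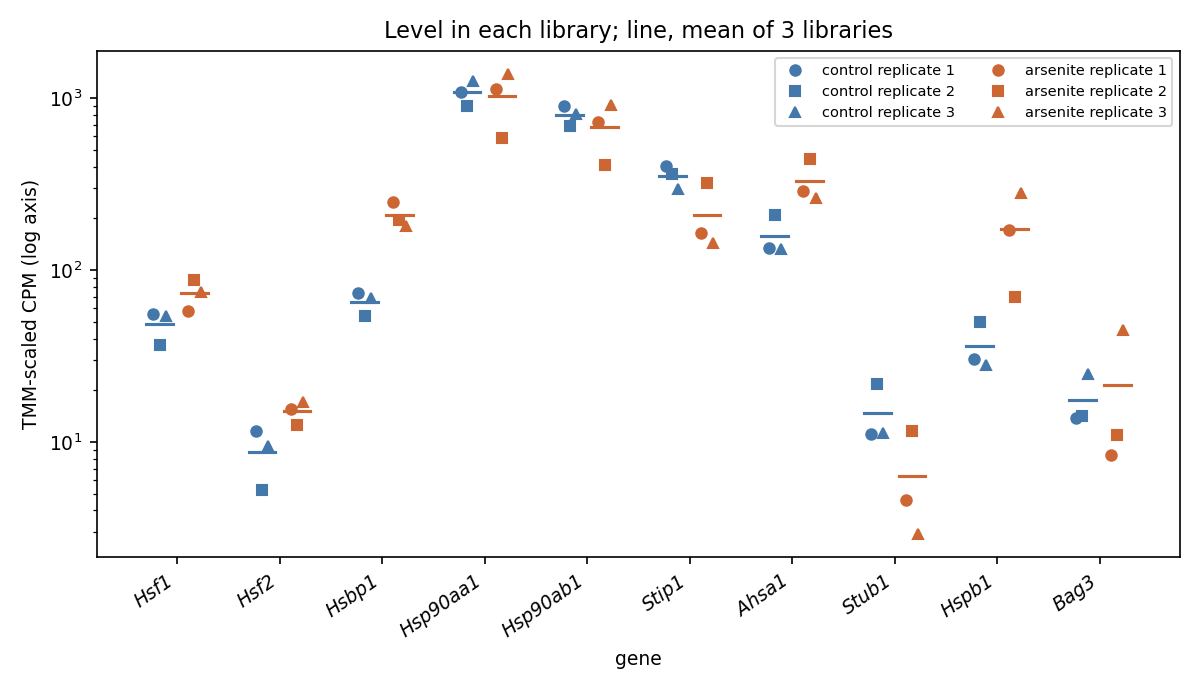
Level of each gene in each library, in TMM-scaled CPM on a log axis, with controls in blue, arsenite libraries in orange, marker shape for the replicate number and a line at the mean of 3 libraries. Hsbp1 and Ahsa1 show separate groups of similar spread, Hspb1 separate groups with a wide arsenite group (70.0 to 281 CPM), and the HSP90 genes overlapping groups.

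The regulator Hsbp1 (chromosome 8, 119344538 to 119348929), whose product is a small coiled-coil protein, was at 73.7, 54.1 and 69.3 CPM in control replicates 1, 2 and 3. It was at 251, 196 and 180.5 CPM in arsenite replicates 1, 2 and 3. Every arsenite library was thus above every control, with little spread on either side. The mean rose from 65.7 ± 10.3 to 209 ± 36.8 CPM (SD of 3 libraries), a log2 change of 1.67 ± 0.29 (SE; by edgeR, adjusted p = 0.00729) and a 3.19-fold rise with a 95% interval of 2.04 to 4.97. Ratios within same-numbered pairs were 3.40, 3.63 and 2.61. It passed in each of the 13 alternative fits, at adjusted p = 9.14e-06 to 0.049. Its promoter window of 300 bases, of which 200 are printed above, held neither form of the element.

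Across the 6 libraries the 3 genes whose log2 CPM tracked Hsbp1 most closely, of 9017 compared, were Hspd1, Far1 and Vta1, each with a Pearson r of 0.998. Such an r is high for many genes that differ between groups, since the 6 points fall into 2 groups. Hspd1, the mitochondrial HSP60 chaperonin, was at 72.8 ± 5.95 CPM over controls and 113 ± 8.89 CPM over arsenite libraries and did not pass (SD of 3 libraries; by edgeR, adjusted p = 0.13). Far1, a fatty acyl-CoA reductase, rose by 1.27 ± 0.28 and Vta1, of the multivesicular body pathway, by 2.27 ± 0.32 on the log2 scale (SE; by edgeR, adjusted p = 0.0154 and 0.00463).

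Hsf1, the main stress-responsive factor (chromosome 15, 76477362 to 76501155), was at 55.3, 36.5 and 54.2 CPM in control replicates 1, 2 and 3 and at 58.0, 88.1 and 74.8 CPM in arsenite replicates 1, 2 and 3. The groups did not overlap, but arsenite replicate 1 lay close to the highest control. Its log2 fold change of 0.60 ± 0.32 (SE) did not pass (edgeR adjusted p = 0.212), with a 95% interval of −0.11 to 1.31. Hsf2 (chromosome 10, 57483766 to 57513143), which can pair with HSF1 and is known for roles in germ cells, was at 11.6, 5.25 and 9.51 CPM in controls and at 15.6, 12.5 and 17.1 CPM with arsenite. Here too every arsenite library was above every control while the log2 fold change of 0.78 ± 0.48 (SE) did not pass (edgeR adjusted p = 0.273), with a 95% interval of −0.27 to 1.84. Per kilobase of exon Hsf1 was at 21.5 ± 4.66 and Hsf2 at 3.21 ± 1.18 CPM in controls (SD of 3 libraries), so Hsf1 was the more abundant of the pair.

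The HSP90 genes were the most abundant of the 10 and neither passed the test. Hsp90aa1, the stress-inducible form (chromosome 12, 110691036 to 110696395), was at 1085, 903 and 1268 CPM in control replicates 1, 2 and 3 and at 1126, 590.1 and 1390 CPM in arsenite replicates 1, 2 and 3. The arsenite group thus held both the highest and the lowest library. Its log2 fold change was −0.07 ± 0.35 (SE; by edgeR, adjusted p = 0.91), and the 95% interval of 0.560- to 1.63-fold leaves room for a moderate change either way. The sign turned to 0.12 without arsenite replicate 2.

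Hsp90ab1, the constitutive form (chromosome 17, 45567778 to 45573261), was at 904, 694 and 806 CPM in controls and at 725, 412 and 917 CPM with arsenite. The order of the arsenite libraries was the same as for Hsp90aa1, with replicate 2 lowest and replicate 3 highest. The log2 fold change of −0.23 ± 0.33 (SE) did not pass (edgeR adjusted p = 0.666), with a 95% interval of 0.513- to 1.42-fold. Both genes together took 0.183% to 0.210% of counts in controls and 0.175%, 0.105% and 0.204% in arsenite replicates 1, 2 and 3.

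The balance of both HSP90 forms was also compared within libraries, where no scaling enters. The ratio of Hsp90aa1 to Hsp90ab1 counts was 1.20, 1.301 and 1.57 in controls 1, 2 and 3 and 1.55, 1.43 and 1.52 in arsenite replicates 1, 2 and 3. Control replicate 3 was the highest of all 6, so the groups overlapped. The mean log2 ratio was 0.43 ± 0.20 in controls and 0.58 ± 0.06 with arsenite (SD of 3 libraries), a difference of 0.15 (two-sided exact permutation p = 0.4, where 3 against 3 libraries can give no less than 0.1). Per kilobase of exon the ratio averaged 1.01 ± 0.144 in controls and 1.12 ± 0.0460 with arsenite (SD of 3 libraries).

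Ahsa1, the activator of the HSP90 ATPase (chromosome 12, 87266415 to 87273998), was at 134, 209 and 133 CPM in control replicates 1, 2 and 3. It was at 288, 443 and 262 CPM in arsenite replicates 1, 2 and 3. Replicate 2 was the highest library of each group, and the ratios within same-numbered pairs were close to each other at 2.14, 2.12 and 1.98. Its mean rose from 159 ± 43.5 to 331 ± 97.5 CPM (SD of 3 libraries), a log2 fold change of 1.06 ± 0.32 (SE; by edgeR, adjusted p = 0.0459). The call was narrow: it was lost with size factors of the DESeq2 type (adjusted p = 0.0531), with scaling by library size only (0.0929), without control replicate 1 (0.149) or 3 (0.199) and without arsenite replicate 1 (0.115) or 2 (0.158), while with the replicate number as a block the adjusted p was 0.0121, over a range of 0.0121 to 0.199.

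Stip1, the adaptor between HSP70 and HSP90 (chromosome 19, 7020696 to 7040026), was at 401, 361 and 297 CPM in control replicates 1, 2 and 3. It was at 165, 320.1 and 144 CPM in arsenite replicates 1, 2 and 3. Arsenite replicates 1 and 3 lay below every control, while arsenite replicate 2 lay within the control range. The log2 fold change of −0.75 ± 0.35 (SE) did not pass (edgeR adjusted p = 0.152), with a 95% interval of −1.51 to 0.01. It passed without arsenite replicate 2, at −1.28 (edgeR adjusted p = 0.0247, over a range of 0.0247 to 0.371 in the alternatives).

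Stub1, the ligase also called CHIP (chromosome 17, 25830634 to 25832919), was at 11.1, 21.9 and 11.2 CPM in controls and at 4.58, 11.5 and 2.92 CPM with arsenite. Arsenite replicate 2 lay just above the lower controls and the other two arsenite libraries below all controls. The log2 fold change was −1.21 ± 0.61 (SE; by edgeR, adjusted p = 0.186), with a 95% interval of −2.55 to 0.13. Without arsenite replicate 2 it was −2.05 and still did not pass (edgeR adjusted p = 0.0536). Exons of Stub1 and of Jmjd8 on the opposite strand overlap by up to 530 bases, and without a known strand setting their reads cannot be told apart. Jmjd8 was listed at 0.243 ± 0.323 CPM over controls and 0.249 ± 0.231 CPM over arsenite libraries (SD of 3 libraries).

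**Figure D2:**
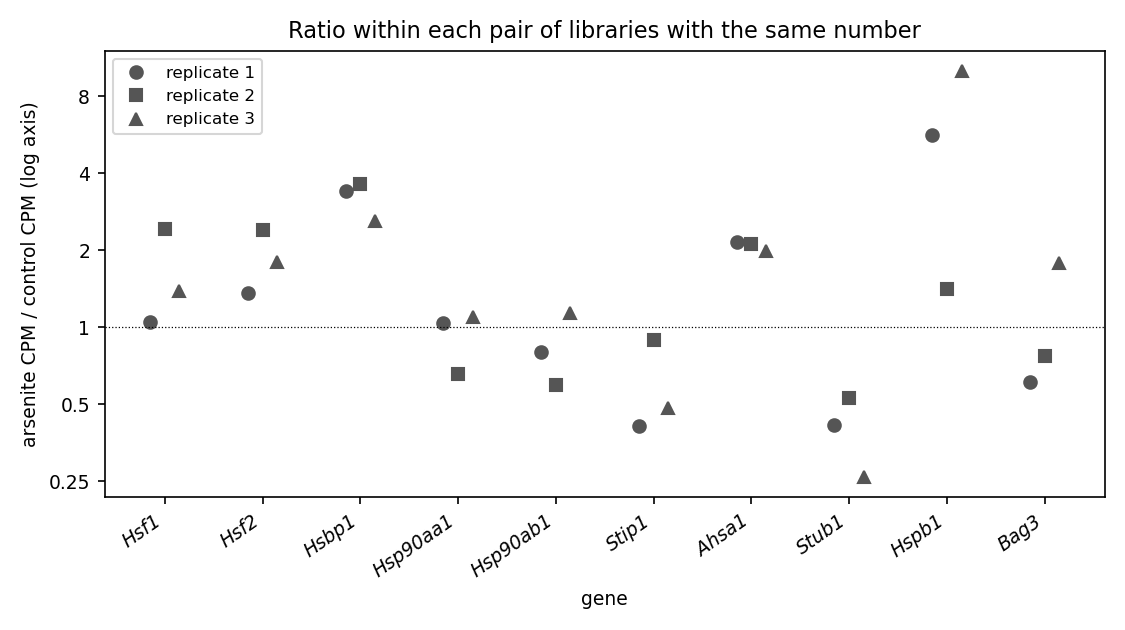
Arsenite CPM divided by control CPM within each pair of libraries with the same replicate number, on a log axis, with 1 as the dotted line. Hsbp1, Ahsa1, Hspb1, Hsf1 and Hsf2 lie above 1 and Stip1 and Stub1 below 1 in all 3 pairs, Ahsa1 has the tightest pairs (1.98 to 2.14) and Hspb1 the widest (1.41 to 10.02).

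Hspb1, the small heat shock protein HSP27 in humans (HSP25 in mice), which holds unfolded proteins in a state fit for refolding (chromosome 5, 135887919 to 135889563), had the largest fold change of the 10. It was at 30.3, 49.7 and 28.1 CPM in control replicates 1, 2 and 3 and at 171, 70.0 and 281 CPM in arsenite replicates 1, 2 and 3. All arsenite libraries were above all controls, but their own range was wide and arsenite replicate 2 was only modestly above control replicate 2. The mean rose from 36.0 ± 11.9 to 174 ± 105.5 CPM (SD of 3 libraries), a log2 fold change of 2.27 ± 0.48 (SE; by edgeR, adjusted p = 0.0136), with pair ratios of 5.65, 1.41 and 10.02. The call was lost without control replicate 1 (adjusted p = 0.0543), control replicate 3 (0.0685) or arsenite replicate 1 (0.0537), with adjusted p = 7.34e-05 to 0.0685 over the alternatives. Of the 7 promoter windows that were matched, only that of Hspb1 held a pair of the short element. Bag3 and Stub1, which were not called, held 1 each, and Hsbp1 and Ahsa1, which rose, held none. Hsf2 and Stip1, which were not called, also held none. The part of the element in these levels was not tested.

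Bag3, which couples HSP70 and small heat shock proteins to autophagy (chromosome 7, 128523583 to 128546981), was at 13.7, 14.2 and 25.002 CPM in controls and at 8.39, 11.0 and 44.7 CPM with arsenite. Arsenite replicates 1 and 2 were below every control and arsenite replicate 3 above every control. The log2 fold change of 0.27 ± 0.62 (SE) did not pass (edgeR adjusted p = 0.788), and its sign depended on that 1 library, turning to −0.86 without arsenite replicate 3. With the replicate number as a block it was −0.07 (edgeR adjusted p = 0.914).

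**Figure D3:**
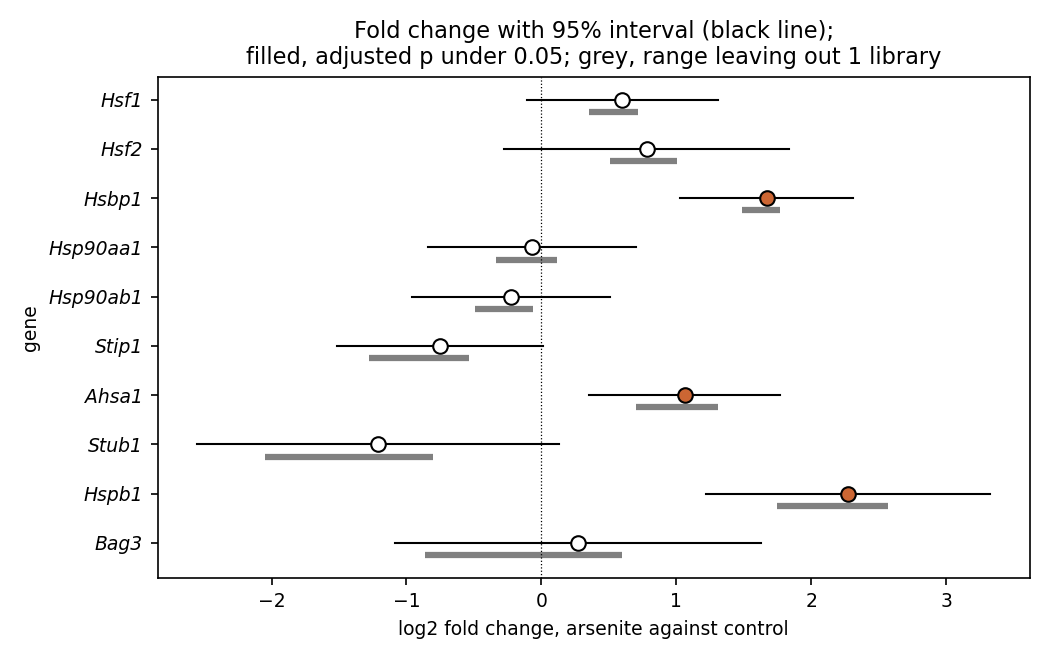
Log2 fold change of each gene, arsenite against control, with its 95% interval as a black line, filled where the adjusted p was under 0.05, and the range over fits that leave out 1 of the 6 libraries in grey. Hsbp1, Ahsa1 and Hspb1 are filled. The grey range of Hsp90aa1 and of Bag3 crosses 0.

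Arsenite replicate 2 was at an end of the arsenite group in several of these genes. It had the lowest Hsp90aa1, Hsp90ab1, Hsf2 and Hspb1 and the highest Hsf1, Ahsa1, Stip1 and Stub1 of the arsenite group. Arsenite replicate 3 was also often at an end. It had the highest Hsf2, Hsp90aa1, Hsp90ab1, Hspb1 and Bag3 and the lowest Hsbp1, Ahsa1, Stip1 and Stub1. The total of counts used of arsenite replicate 2, 8384712, was the highest of that group. That library had the most genes with at least 1 count, 16553 against 14670 to 15494 in the other 5 libraries. The part of these library properties in the gene values was not tested. Without arsenite replicate 2, 2 of the 10 genes were higher and 1 was lower, namely Stip1.

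Per kilobase of exon the order of levels in controls was Hsp90aa1 (321 ± 54.1 CPM, rank 165 of 12451 genes), Hsp90ab1 (318 ± 41.7, rank 169), Stip1 (168 ± 25.01), Ahsa1 (115 ± 31.6), Hsbp1 (52.5 ± 8.23), Hspb1 (34.9 ± 11.5), Hsf1 (21.5 ± 4.66), Bag3 (6.88 ± 2.49), Stub1 (6.42 ± 2.70) and Hsf2 (3.21 ± 1.18; SD of 3 libraries). Hsp90aa1 and Hsp90ab1, and also Bag3 and Stub1, differed by less than their spread. With arsenite the means were 240.4 ± 70.8 CPM per kilobase for Ahsa1, 169 ± 102 for Hspb1, 167 ± 29.4 for Hsbp1 and 99.4 ± 45.7 for Stip1, with ranks of 251, 386, 389 and 769. Hspb1 did not differ from Ahsa1, Hsbp1 or Stip1 beyond its own SD. Stub1, at 2.76 ± 1.99 CPM per kilobase, was then the lowest of the 10.

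The other genes of the system were taken from lists by function, 72 genes in the table and 68 of them tested. Of these 68, 8 rose and 4 fell, 17.6% against 16.7% of all tested genes, with a median log2 fold change of −0.01 against 0.07. With the replicate number as a block 11 rose and 9 fell, while 26.0% of all tested genes were then called. The lists differed in which way their called members went. The lists were chosen with earlier results of these data known. Their counts are therefore descriptions, to be read beside the 9.43% of all tested genes called higher and the 7.26% called lower. No difference between lists was tested.

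Among the HSF family and its partners 2 of 4 tested genes rose and 1 fell. Hsf5, a germline member of the family, rose from 13.2 ± 7.12 to 45.3 ± 15.2 CPM, and Hsf2bp, which was found as a partner of HSF2 and acts in meiotic recombination, from 33.6 ± 10.7 to 120.02 ± 42.4 CPM (SD of 3 libraries; by edgeR, adjusted p = 0.0271 and 0.0119). Hsbp1l1, a paralog of Hsbp1, fell from 9.47 ± 0.691 to 2.17 ± 1.00 CPM (SD of 3 libraries; by edgeR, adjusted p = 0.0455), while Hsbp1 itself rose. Of 8 genes whose products modify or bind HSF1, 0 were called by edgeR or limma-voom, while 2 had an unadjusted p under 0.05 and DESeq2 called 2 lower. They were Plk1, a kinase, with a log2 fold change of −0.93 ± 0.32, and Gsk3b, also a kinase, with −1.01 ± 0.36 (SE; by edgeR, adjusted p = 0.0693 and 0.0759). With the replicate block Plk1 passed as lower (adjusted p = 0.0333).

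Of 30 tested HSP90 co-chaperones 1 rose and 3 fell, 13.3% against 16.7% of all tested genes, with a median of −0.42. Ahsa2, the paralog of Ahsa1, rose from 15.7 ± 5.97 to 72.2 ± 22.7 CPM, a log2 fold change of 2.20 ± 0.41 (SD of 3 libraries, and SE; by edgeR, adjusted p = 0.00904). Sugt1, a co-chaperone with a kinetochore role, fell from 1399 ± 29.5 to 711 ± 95.2 CPM (SD of 3 libraries; by edgeR, adjusted p = 0.0351). Tomm70a, a mitochondrial import receptor that docks HSP90, fell by 1.76 ± 0.38 and Ruvbl2, an ATPase of the R2TP complex, by 1.23 ± 0.38 on the log2 scale (SE; by edgeR, adjusted p = 0.0148 and 0.047). With the block 1 rose and 6 fell, while 26.0% of all tested genes were then called. The HSP90 paralogs of other compartments did not pass: Hsp90b1, of the endoplasmic reticulum, had a log2 fold change of 0.81 ± 0.33 and Trap1, of mitochondria, −1.04 ± 0.43 (SE; by edgeR, adjusted p = 0.109 and 0.116).

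Of 10 classic HSF1 targets outside the 10 genes 4 rose and 0 fell, with a median of 0.88. Over all tested genes 9.43% were called higher and 7.26% lower. Rises of this list numbered 0, 2 and 1 without control replicates 1, 2 and 3. Without arsenite replicates 1, 2 and 3 they numbered 0, 4 and 2, the last with 1 fall. Dnajb1, the HSP40 partner of HSP70, rose from 101 ± 24.7 to 269.5 ± 40.9 CPM and Hspe1, the mitochondrial HSP10, from 13.8 ± 2.66 to 68.2 ± 40.9 CPM (SD of 3 libraries; by edgeR, adjusted p = 0.0139 and 0.0158). The inducible HSP70 genes Hspa1a and Hspa1b rose from 7.36 ± 4.53 to 36.8 ± 24.8 CPM and from 2.23 ± 1.23 to 18.7 ± 12.1 CPM (SD of 3 libraries; by edgeR, adjusted p = 0.027 and 0.0176). These 2 genes, which make up 2 of the 4 rises, are near-identical copies, so the split of reads between them is uncertain. The other 6 targets were Hspa8, Hspa4, Hspa4l, Hspd1, Hsph1 and Dnaja1, with log2 fold changes from −0.91 (Hspa4) to 0.91 (Hspa8). At an unadjusted p under 0.05 this list had 6 higher genes and 1 lower gene. Over all tested genes 33.9% passed that mark in either direction. With the replicate block 5 rose and 1 fell, Hspa8 (adjusted p = 0.0228) and Hspa4 (adjusted p = 0.0271) being added. The block called 26.0% of all tested genes.

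Of 6 tested E2 enzymes that can work with STUB1, 1 rose and 0 fell, 16.7% against 16.7% of all tested genes. Ube2d3 went from 1369 ± 160 to 4345 ± 1187 CPM (SD of 3 libraries; by edgeR, adjusted p = 0.00961). Ube2w, which primes STUB1 with ubiquitin, had a log2 fold change of 0.97 ± 0.32 (SE; by edgeR, adjusted p = 0.0604) and passed with the replicate block (adjusted p = 0.0464). Of 6 tested genes of the BAG family and BAG3 partners 0 were called by edgeR, with 2 at an unadjusted p under 0.05 and with 1 higher and 1 lower by DESeq2: Bag4 had a log2 fold change of 1.09 ± 0.36 and Bag6 of −0.99 ± 0.39 (SE; by edgeR, adjusted p = 0.0586 and 0.102). Bag4 passed as higher with the replicate block (adjusted p = 0.0252). Of the other genes listed by symbol as small heat shock proteins 4 were in the table and 2 were tested. None was called by edgeR, DESeq2 or limma-voom, with 1 at an unadjusted p under 0.05. Hspb6 had a log2 fold change of 1.77 ± 0.68 and Hspb11 of 0.01 ± 1.07 (SE; by edgeR, adjusted p = 0.0945 and 0.997). Hspb11 had only 3 to 12 counts a library.

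Each of these 12 calls was lost in at least 1 fit that left out a library. Ahsa2 and Ube2d3 lost theirs only without control replicate 3 (adjusted p = 0.0529 and 0.0595). Hsf2bp lost its call without control replicates 1 or 3 and Tomm70a without control replicate 1 or arsenite replicate 1 (highest adjusted p = 0.0701 and 0.0588). Dnajb1 lost its call without control replicates 1 or 3 or arsenite replicate 1, and Hsf5 without control replicates 2 or 3 or arsenite replicate 1 (highest adjusted p = 0.0832 and 0.118). Hspa1a lost its call without control replicates 1 or 2 or arsenite replicates 1 or 3, Hspa1b without control replicates 1 or 3 or arsenite replicates 1 or 3, and Hspe1 without any 1 control or arsenite replicate 1 (highest adjusted p = 0.0968, 0.0609 and 0.065). Hsbp1l1, Sugt1 and Ruvbl2 kept theirs only without arsenite replicate 2 (highest adjusted p = 0.135, 0.109 and 0.13). Rises numbered 3, 5 and 1 without control replicates 1, 2 and 3, and 3, 8 and 7 without arsenite replicates 1, 2 and 3. Falls numbered 0, 1 and 1, then 0, 7 and 2.

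**Figure D4:**
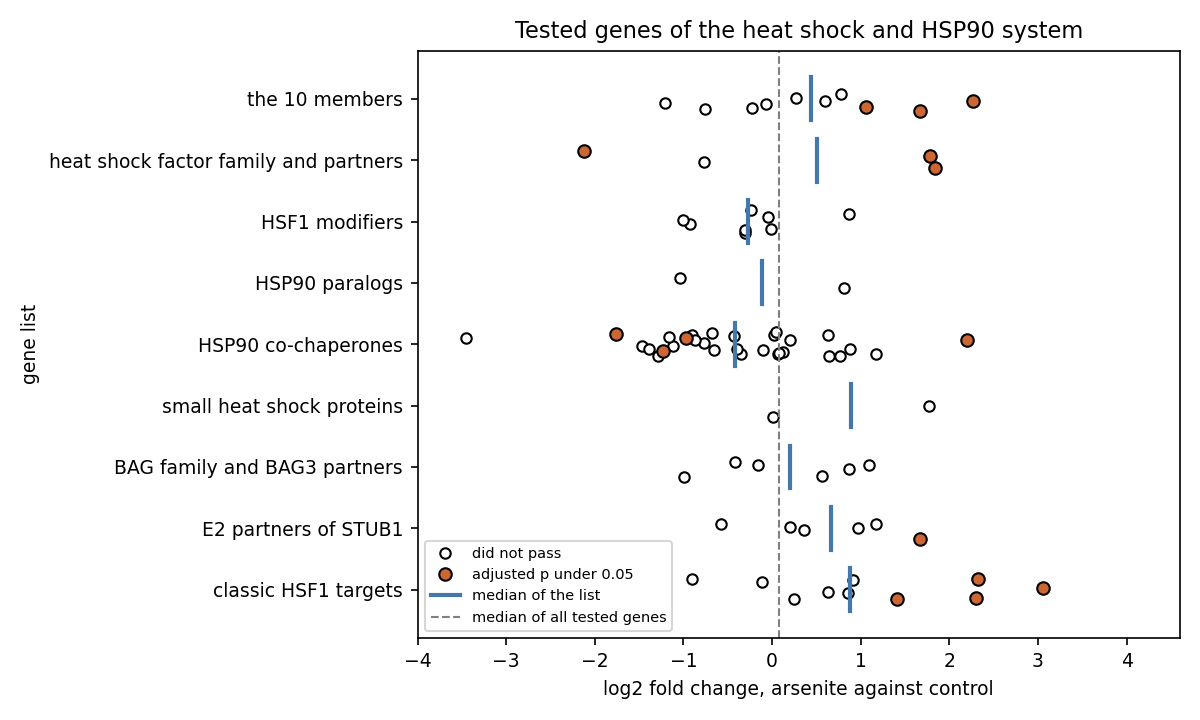
Log2 fold change of the 10 genes and of each tested gene of the other lists of the system, with filled points for an adjusted p under 0.05, a blue bar at the median of each list and a dashed line at the median of all tested genes (0.07). Called points of the classic HSF1 targets lie to the right (4 of 10), and 3 of the 4 called co-chaperones of HSP90 to the left. Of all tested genes 9.43% were called higher and 7.26% lower. The lists were chosen with earlier results of these data known. Of the tested co-chaperones 13.3% were called, against 16.7% of all tested genes.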

How the data were processed

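The authors deposited raw counts of reads by gene symbol, with 6 library columns. Tools listed in the submitters' processing notes, with no roles, are featureCounts 1.6.2, DESeq2 1.30.1, StringTie 2.1.4 and STAR, and the build is mm10. Annotation and strand setting are not stated there. Of 18660 rows, 11 whose symbol had become a date were left out.

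Tests used edgeR 4.0.16 under R 4.3.3 (TMM, filterByExpr defaults, two-sided quasi-likelihood test, no covariate, Benjamini-Hochberg adjusted p under 0.05 over 12582 genes). SE is the log2 fold change divided by the root of F. Alternatives used DESeq2 1.42.0, limma 3.58.1 (voom), other scalings and filters, the replicate number as a block, and each library left out. Deviations from group means of same-numbered libraries correlated at 0.189, 0.221 and 0.178 across genes, and other pairs at −0.164 to −0.0238. Deviations from a group mean cancel within the group, so positive same-numbered values pull the other pairs below 0. With each over 0.1 the numbers were taken as pairs in the block fit, the pair ratios and the sign-flip test. The main test left them out. What a number stands for is not in the labels.

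Exon lengths came from GENCODE M21 and positions and promoters from RefSeq on GRCm38.p6. The members and lists were chosen with earlier results of these data known. Beyond the 10 genes, text names the 2 list genes with the smallest p, any called list gene, the top call of each compared family and the 3 genes most like Hsbp1. Hspa8, Hspa4, Hspa4l, Hsph1 and Dnaja1 were named after their values were seen.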

Additional observations from a re-analysis of the deposited data

How the results depend on the processing

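Hsbp1 kept its call in all 13 alternatives, Hspb1 in 10 and Ahsa1 in 7. The Hsf1, Hsf2 and Hsp90ab1 fold changes kept their sign and stayed uncalled in all 13. Bag3 turned to −0.12 with limma-voom, and ran from −0.86 to 0.60 with 1 library left out. Hsp90aa1 ran from −0.34 to 0.12 in those fits. With 1 library left out, rises among the 10 genes numbered 1 to 3 and falls 0 to 1, rises among the other genes of the system 1 to 8 and falls 0 to 7, and calls among all genes 405 to 2002. Such fits hold fewer libraries. With the replicate block Bag3 was at −0.073, and the block gave 9 falls in the system and 3268 calls in all, and DESeq2 gave 11 and 3265, against 4 and 2101. The block changed no call among the 10 genes and added 8 calls in the system. For the HSP90 ratio, an exact sign-flip test of pairs in the replicate block gave the same difference of 0.15 with p = 0.5, where 3 pairs can give no less than 0.25, and leaving out 1 library gave 0.07 to 0.26. Scaling by library size only took the median of all tested genes from 0.07 to −0.05 (log2) and the calls from 1187 higher and 914 lower to 930 higher and 1070 lower. The causes were not tested. Counting error is larger at low counts, and Stub1 had 20 to 196 counts a library. Its SD was 42.1% of the mean CPM in controls and 72.0% with arsenite. The part of low counts in this spread was not tested.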

Other observations

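The neighbouring chaperone families were described in the same fit, by lists of function. Hspa1a, Hspa1b and Dnajb1, given above, are counted here too. Of 14 tested HSP70 and HSP110 genes 4 rose and 0 fell, 28.6% against 16.7% of all tested genes, with a median log2 fold change of 0.62. At an unadjusted p under 0.05 there were 5 higher and 1 lower, where 33.9% of all tested genes passed. DESeq2 also gave 5 higher and 1 lower. Hspa2, an HSP70 of germ cells, rose from 8.71 ± 2.82 to 114 ± 91.9 CPM (SD of 3 libraries), a log2 change of 3.70 ± 0.61 (SE; by edgeR, adjusted p = 0.00604). Without control replicates 1, 2 and 3 the rises numbered 1, 2 and 2, and without arsenite replicates 1, 2 and 3 they numbered 1, 3 and 1, the last with 1 fall. The replicate block gave 5 rises and 1 fall, while 26.0% of all tested genes were then called. Of 40 tested DNAJ co-chaperones 3 rose and 6 fell, 22.5% against 16.7% of all tested genes, with a median of −0.32. Leaving out control replicates 1, 2 and 3 gave 2, 2 and 1 rises and 1, 2 and 2 falls, and leaving out arsenite replicates 1, 2 and 3 gave 1, 3 and 3 rises and 2, 4 and 2 falls. Dnajc15, which acts at the mitochondrial import motor, fell from 126 ± 17.7 to 13.9 ± 4.13 CPM (SD of 3 libraries), a log2 fold change of −3.18 ± 0.35 (SE; by edgeR, adjusted p = 0.00392). Of the 9 subunits of the CCT chaperonin, which folds actin and tubulin, 0 were called by edgeR, 2 were lower at an unadjusted p under 0.05, and DESeq2 and limma-voom each called 1 lower, with a median of −0.67. Arsenite libraries lay wholly below controls for 5 of these 9 genes, where 19.7% of all tested genes did so. With the replicate block 2 of the 9 fell, and without arsenite replicate 3, 1 fell. No difference between these families was tested.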
